A study of Mus musculus with 8 samples.

Results

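Mouse pancreatic islets are threaded by a dense capillary bed, and 37 genes of that bed were examined here in islets lacking Fibulin-5 in β-cells. The genes were listed by name, as markers of endothelial cells and as ligands, receptors and transcription factors of angiogenesis. All 37 were found among the 22911 genes named by a probe. Each gene was read from its probe with the highest mean over 8 single-colour arrays.

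Fibulin-5 (Fbln5) is a secreted matricellular protein of elastic fibres. Control islets came from Fbln5-floxed mice, for which the labels name no Cre, and βFbln5KO islets came from Fbln5-floxed mice that also carry Ins1-Cre, in which the mouse insulin 1 promoter drives Cre in β-cells. The animals of both groups were male littermates of 11 weeks of age, and both groups therefore share the floxed allele. Each group had 4 arrays, each hybridised with RNA from an extraction of 150 islets taken directly after isolation. The driver limits the model to β-cells, and the endothelial cells of the islet are not a target of Ins1-Cre. The labels call the arrays biological replicates without saying how many mice gave each extraction.

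Islet capillaries are fenestrated, and their endothelial cells depend on vascular endothelial growth factor A (VEGF-A) secreted by neighbouring β-cells, which acts on the receptors Kdr and Flt1. A further system, the angiopoietins and their receptor Tek, sets how stable the vessel wall is. Angpt1 stabilises vessels, whereas Angpt2, released by the endothelial cells themselves, generally opposes it. Junction and surface proteins such as Pecam1 and Cdh5 hold the endothelial sheet together, and Plvap forms the diaphragms of its fenestrae.

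Values are log2 signals relative to the 75th percentile of the same array, so 0 marks that percentile. Because probes differ in brightness, a level was compared between arrays and never between genes. A probe was called measured where Feature Extraction flagged it well above background. All 37 genes were measured on at least 1 array and 32 on all 8. Cldn5, a tight-junction protein of endothelium, was measured on 3 control arrays and 1 βFbln5KO array. Angpt1 had the same 3 and 1, Aplnr had 2 and 1, Dll4 had 4 and 2, and Erg had 4 and 3. The defining endothelial markers Pecam1, Cdh5, Kdr, Tie1, Emcn and Plvap were measured on all 8 arrays. In whole islets, fewer endothelial cells and less RNA per cell cannot be told apart.

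The 75th percentile of the signal ran from 709 to 1012 on control arrays and from 910 to 1055 on βFbln5KO arrays. The share of spots well above background was 56.6% to 58.8% on control arrays and 52.6% to 56.6% on βFbln5KO arrays. Each genotype occupied its own row of arrays on a single slide, so position on the slide and genotype cannot be told apart. Fbln5 itself was at -1.70, -1.32, -2.05 and -1.83 on control arrays 1 to 4 and at -2.74, -2.40, -2.38 and -1.37 on βFbln5KO arrays 1 to 4. The first 3 βFbln5KO arrays lay below every control array, and βFbln5KO array 4 lay within the control range. The difference was -0.50 (SE 0.29, limma adjusted p = 0.342), and -0.78 without βFbln5KO array 4 (limma adjusted p = 0.0227). Where the probe lies relative to the deleted exons is not given in the sources used here. Calls of members that change without βFbln5KO array 4 are given with and without it. Genes that were dim on all 8 arrays had a median log2 difference of 0.48, βFbln5KO over control, against -0.01 for the genes measured on all 8, and the part of this shift in the differences of the 5 partly dim members was not tested.

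No member passed limma's adjusted p of 0.05, against 0.0176% of the 17075 genes measured on at least 1 array. At an unadjusted p of 0.05, 3 members were lower in βFbln5KO islets, namely Angpt2, Vwf and Podxl, and 0 were higher. Among all measured genes, 3.24% were lower and 1.82% higher by the same rule. The groups did not overlap for 2 members, Angpt2 and Podxl, both lower in βFbln5KO islets, and for 0 members in the other direction. The shares of all measured genes were 2.21% lower and 3.67% higher. The log2 fold changes of the 37 members, βFbln5KO over control, ran from -0.87 to 0.34 with a median of -0.07, against a median of -0.01 over the 17075 genes. Of the 37, 24 were below 0 and 13 above.

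**Figure D1:**
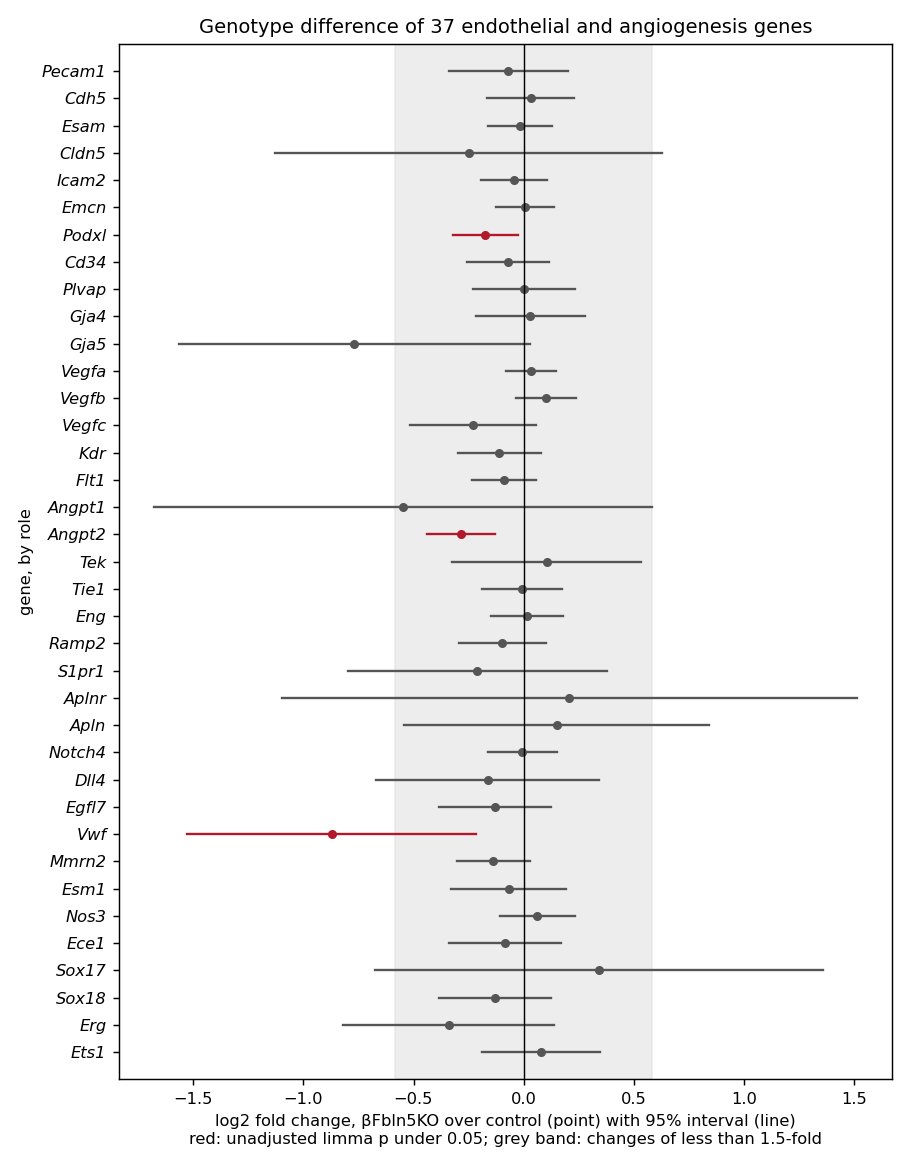
Log2 fold change of each of the 37 genes, βFbln5KO over control, as a point with its 95% limma interval as a line, ordered by role (n = 4 arrays per group). Red marks the 3 genes past an unadjusted p of 0.05 (Podxl, Angpt2 and Vwf), the grey band marks changes of less than 1.5-fold, and 27 intervals lie wholly inside it.

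The median SE of the members was 0.11, the same as for all measured genes. For 27 of the 37 members, the 95% interval excluded a 1.5-fold change in either direction. The other 10 were Cldn5, Gja5, Angpt1, S1pr1, Aplnr, Apln, Dll4, Vwf, Sox17 and Erg. For 21 members the SD was under 0.2 in both groups.

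Angpt2, the angiopoietin released from endothelial cells, gave the smallest p of the set. Its log2 signal was -0.44, -0.48, -0.24 and -0.41 on control arrays 1 to 4. On βFbln5KO arrays 1 to 4 it was -0.71, -0.70, -0.64 and -0.65. Every βFbln5KO array lay below every control array, and the βFbln5KO arrays were spread less. The mean was -0.39 ± 0.11 (SD, n = 4) in control islets and -0.68 ± 0.035 (SD, n = 4) in βFbln5KO islets. The difference was -0.28 (SE 0.07), that is, a control level 1.22-fold that of βFbln5KO islets. Limma gave an unadjusted p of 0.00241 and an adjusted p of 0.0728, and the exact two-sided permutation test gave p = 0.0286, the smallest that 4 against 4 arrays allow. Without βFbln5KO array 4 the difference was -0.29, the unadjusted p was higher, at 0.0048, and the adjusted p was 0.0253. Over probes measured on at least 4 arrays only, the unadjusted p was 0.00371 and the adjusted p was 0.657. Over the 21 alternatives the adjusted p ranged from 0.0127 to 1.

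Its counterpart Angpt1, the ligand that activates Tek, was dim. It read -4.84, -4.75, -3.25 and -4.19 on control arrays and -5.30, -5.48, -4.78 and -3.65 on βFbln5KO arrays. The groups overlapped across this wide range, and the difference of -0.55 had an SE of 0.50 (limma adjusted p = 0.594). The difference was -0.10 (unadjusted p = 0.707) when dim signals were raised to a common floor, and -0.21 without control array 3. Without βFbln5KO array 4 no βFbln5KO array measured Angpt1, which then gives no fold. Tek, the angiopoietin receptor, was at -1.58, -2.12, -2.0 and -1.46 in control islets and -1.36, -1.96, -1.57 and -1.86 in βFbln5KO islets. Neither group stood apart, and the difference was 0.10 (SE 0.19, limma adjusted p = 0.817). Tie1, the orphan receptor that partners Tek, was at -0.87, -0.88, -0.89 and -0.82 in control islets and -1.0, -0.68, -0.93 and -0.89 in βFbln5KO islets. Its βFbln5KO arrays lay on both sides of the control arrays, and the difference was -0.01 (SE 0.08). Of this system, Angpt2 alone passed the unadjusted threshold, and its difference from Angpt1, Tek or Tie1 was not tested.

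The VEGF ligands and receptors gave small differences. Vegfa, which encodes the main β-cell signal to islet endothelium, read 4.41, 4.50, 4.50 and 4.42 on control arrays and 4.44, 4.52, 4.47 and 4.54 on βFbln5KO arrays. The groups interleaved, and the difference was 0.03 (SE 0.05, limma adjusted p = 0.773, exact permutation p = 0.371). The 95% interval ran from -5.5% to 10.8%. Vegfa has 3 further probes. The first gave a difference of 0.08 (95% interval -0.03 to 0.19) and the second -0.20 (95% interval -0.42 to 0.01, limma adjusted p = 0.230). The last was dim on all 8 arrays. The second read 0.87, 0.70, 0.78 and 0.88 on control arrays and 0.55, 0.72, 0.79 and 0.36 on βFbln5KO arrays, with βFbln5KO arrays 1 and 4 below all control arrays. The sign for Vegfa thus depended on the probe, and no probe passed the adjusted threshold.

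Vegfb, a ligand of Flt1, was at 1.23, 1.24, 1.17 and 1.20 in control islets and at 1.35, 1.39, 1.36 and 1.15 in βFbln5KO islets. The first 3 βFbln5KO arrays lay above every control array and array 4 below them all. Over all arrays the difference was 0.10 (SE 0.06, limma adjusted p = 0.354), and without βFbln5KO array 4 it was 0.16 (limma adjusted p = 0.0273, with a range of 0.0273 to 1 over the alternatives). Without that array 1.93% of the 17075 genes passed the adjusted threshold, Angpt2 and Vegfb among them. Vegfc, better known for lymphatic growth, read -0.40, -0.85, -0.74 and -0.36 in control islets and -0.72, -0.90, -0.69 and -0.96 in βFbln5KO islets. The groups overlapped, with a difference of -0.23 (SE 0.13, limma adjusted p = 0.322). Without control array 2 the difference was -0.32, with an unadjusted p of 0.0289 and a limma adjusted p of 0.151, the lowest over the alternatives.

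Kdr, the main signalling receptor for VEGF-A, was at 2.71, 2.72, 2.84 and 2.79 in control islets and 2.42, 2.72, 2.81 and 2.67 in βFbln5KO islets. βFbln5KO array 1 was the lowest of the 8, and the rest overlapped. The difference was -0.11 (SE 0.08, limma adjusted p = 0.498), and -0.03 without βFbln5KO array 1. Flt1, the decoy-like receptor that binds VEGF-A tightly, read 3.44, 3.23, 3.35 and 3.35 in control islets and 3.17, 3.35, 3.32 and 3.17 in βFbln5KO islets. βFbln5KO arrays 1 and 4 were the lowest of the 8, and the difference was -0.09 (SE 0.06, limma adjusted p = 0.483).

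**Figure D2:**
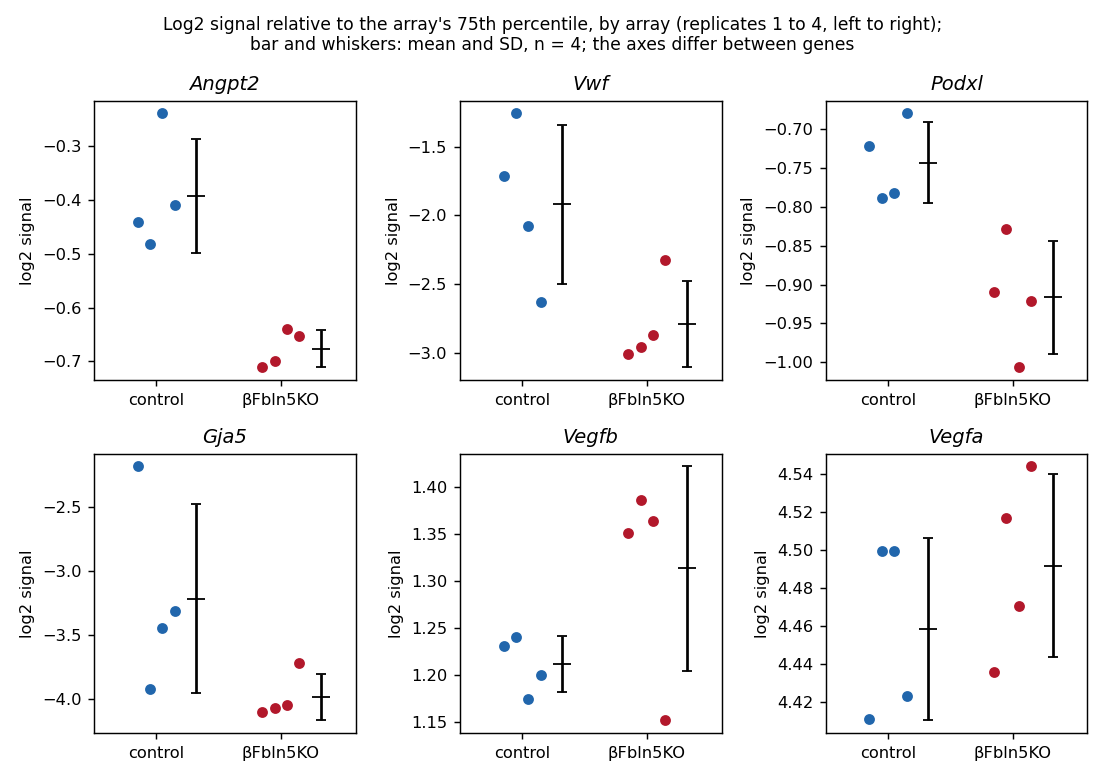
Log2 signal relative to the 75th percentile of the array, for Angpt2, Vwf, Podxl, Gja5, Vegfb and Vegfa on each array (points, replicates 1 to 4 from left to right in each group), with the mean and SD beside them (n = 4). Axes differ between genes. Control and βFbln5KO arrays do not overlap for Angpt2 and Podxl, while βFbln5KO array 4 stands apart from the other βFbln5KO arrays for Gja5 and Vegfb.

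Among the secreted and matrix proteins, Vwf gave the largest fold change of the 37. Von Willebrand factor is a clotting glycoprotein stored in endothelial granules, the same granules that hold Angpt2. It read -1.71, -1.26, -2.08 and -2.63 on control arrays and -3.01, -2.96, -2.87 and -2.33 on βFbln5KO arrays. The first 3 βFbln5KO arrays lay below every control array, but βFbln5KO array 4 was above control array 4, so the groups overlapped. The difference was -0.87 (SE 0.29), a control level 1.83-fold that of βFbln5KO islets, with a 95% interval of -65.3% to -13.9%. Limma gave an unadjusted p of 0.0149 and an adjusted p of 0.089, and the exact two-sided permutation test gave p = 0.0571. Over probes measured on at least 4 arrays only, limma's unadjusted p was 0.0124 and its adjusted p was 0.657. Limma can also weight each array by its agreement with its group, which gave βFbln5KO array 4 the lowest weight, 0.313. The adjusted p was then 0.0409 for Vwf and 0.0127 for Angpt2, the lowest for both over the alternatives, and 1.07% of the 17075 genes passed. Of the other members of this role, Egfl7, a vessel matrix protein, differed by -0.13, and Mmrn2, a matrix ligand of endothelial lectins, by -0.14. Esm1, or endocan, a proteoglycan of angiogenic tip cells, differed by -0.07. None of these passed the unadjusted threshold, although Mmrn2 did without control array 1, at -0.19 (unadjusted p = 0.0278, limma adjusted p = 0.164). Without control array 3 the differences were -0.09 for Mmrn2 (limma unadjusted p = 0.230), -0.06 for Egfl7 and 0.05 for Esm1.

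Of the 11 junction and surface genes, Podxl alone passed the unadjusted threshold. Podocalyxin is a sialomucin of the luminal endothelial surface and is related to Cd34. Podxl was at -0.72, -0.79, -0.78 and -0.68 in control islets and -0.91, -0.83, -1.01 and -0.92 in βFbln5KO islets. Every βFbln5KO array lay below every control array. The difference was -0.17 (SE 0.06), a control level 1.13-fold that of βFbln5KO islets, with a limma unadjusted p of 0.026, an adjusted p of 0.129 and an exact permutation p of 0.0286. This call was lost when control array 1, control array 4 or βFbln5KO array 3 was left out, with unadjusted p-values of 0.0516, 0.0733 and 0.0778. With another background correction (normexp) the difference was -0.12 and the unadjusted p was 0.141.

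The defining junction genes did not pass the test, and their intervals excluded a 1.5-fold change. Pecam1, or CD31, an adhesion molecule of endothelial contacts, read -1.60, -1.62, -1.98 and -1.53 in control islets and -1.77, -1.88, -1.62 and -1.74 in βFbln5KO islets. The groups overlapped, and the 95% interval of the difference ran from -21.0% to 15.0%. Cdh5, or VE-cadherin, the adherens junction protein of endothelium, read -0.05, -0.07, 0.23 and 0.07 in control islets and 0.21, -0.06, 0.04 and 0.13 in βFbln5KO islets. Its interval ran from -10.7% to 17.2%.

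Plvap read 3.31, 3.27, 3.42 and 3.49 in control islets and 3.43, 3.12, 3.62 and 3.33 in βFbln5KO islets. The highest and the lowest array both belonged to βFbln5KO, and the difference was 0.00 (SE 0.10). Emcn, or endomucin, a sialomucin of capillaries and veins, read 3.12, 3.03, 3.15 and 3.01 in control islets and 3.16, 3.04, 2.99 and 3.15 in βFbln5KO islets, with an interval of -8.4% to 10.1%. For these 4 genes limma's adjusted p ran from 0.807 to 0.992. Esam, Icam2 and Cd34, adhesion molecules of the endothelial surface, differed by -0.02, -0.04 and -0.07. Cldn5 differed by -0.25 (SE 0.39), and by -0.61 without βFbln5KO array 4 (unadjusted p = 0.0477, limma adjusted p = 0.181). That array was the only βFbln5KO array on which Cldn5 was measured, so the remaining βFbln5KO values are below background and give no fold.

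The 2 gap-junction genes, both typical of arterial endothelium, differed in size of change, and this was not tested. Gja4 differed by 0.03. Gja5 read -2.18, -3.92, -3.45 and -3.31 in control islets and -4.10, -4.07, -4.04 and -3.71 in βFbln5KO islets, with the first 3 βFbln5KO arrays below all control arrays. Its difference was -0.77 (SE 0.35), with an unadjusted p of 0.0567 and a limma adjusted p of 0.220. Control array 1 stood well above the other 3 control arrays, and the difference was -0.43 without control array 1 and -1.01 without control array 2. Gja5 passed the unadjusted threshold under 5 of 21 alternatives, namely without control array 2, with normexp, with the deposited table, with the mean of its probes, and over probes measured on at least 4 arrays.

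The 7 other receptors and peptide ligands differed by -0.21 to 0.21. Eng, a co-receptor for BMP9 and TGF-β, differed by 0.02, and Notch4, the Notch receptor of endothelium, by -0.01. Ramp2, which makes the adrenomedullin receptor with its partner, differed by -0.10 (SE 0.09). S1pr1, the sphingosine-1-phosphate receptor that tightens the endothelial barrier, differed by -0.21 (SE 0.26). Dll4, the Notch ligand of tip cells and arteries, differed by -0.16 (SE 0.22). Over the 8 fits that drop 1 array, these differences ran from -0.14 to -0.02 for Ramp2, from -0.39 to -0.03 for S1pr1 and from -0.25 to -0.04 for Dll4. Apln and its receptor Aplnr, expressed by tip cells and by vein endothelium, differed by 0.15 (SE 0.30) and 0.21 (SE 0.58). Both changed sign with single arrays left out, from -0.10 to 0.35 for Apln and from -0.31 to 0.52 for Aplnr. Apln was measured on all 8 arrays and Aplnr on 3.

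Neither enzyme passed the unadjusted threshold. Nos3, the endothelial nitric oxide synthase, differed by 0.06, and Ece1, which cleaves the endothelin precursor, by -0.09. Of the transcription factors, Sox18 and Erg, both of which govern endothelial identity, differed by -0.13 and -0.34, and Ets1, an angiogenic ETS factor, by 0.08. Sox17, an arterial factor, differed by 0.34 (SE 0.45), the highest of the set. That value rested on βFbln5KO array 1, which read -1.28, while the other βFbln5KO arrays ran from -3.42 to -3.17 and the control arrays from -3.33 to -3.03.

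**Figure D3:**
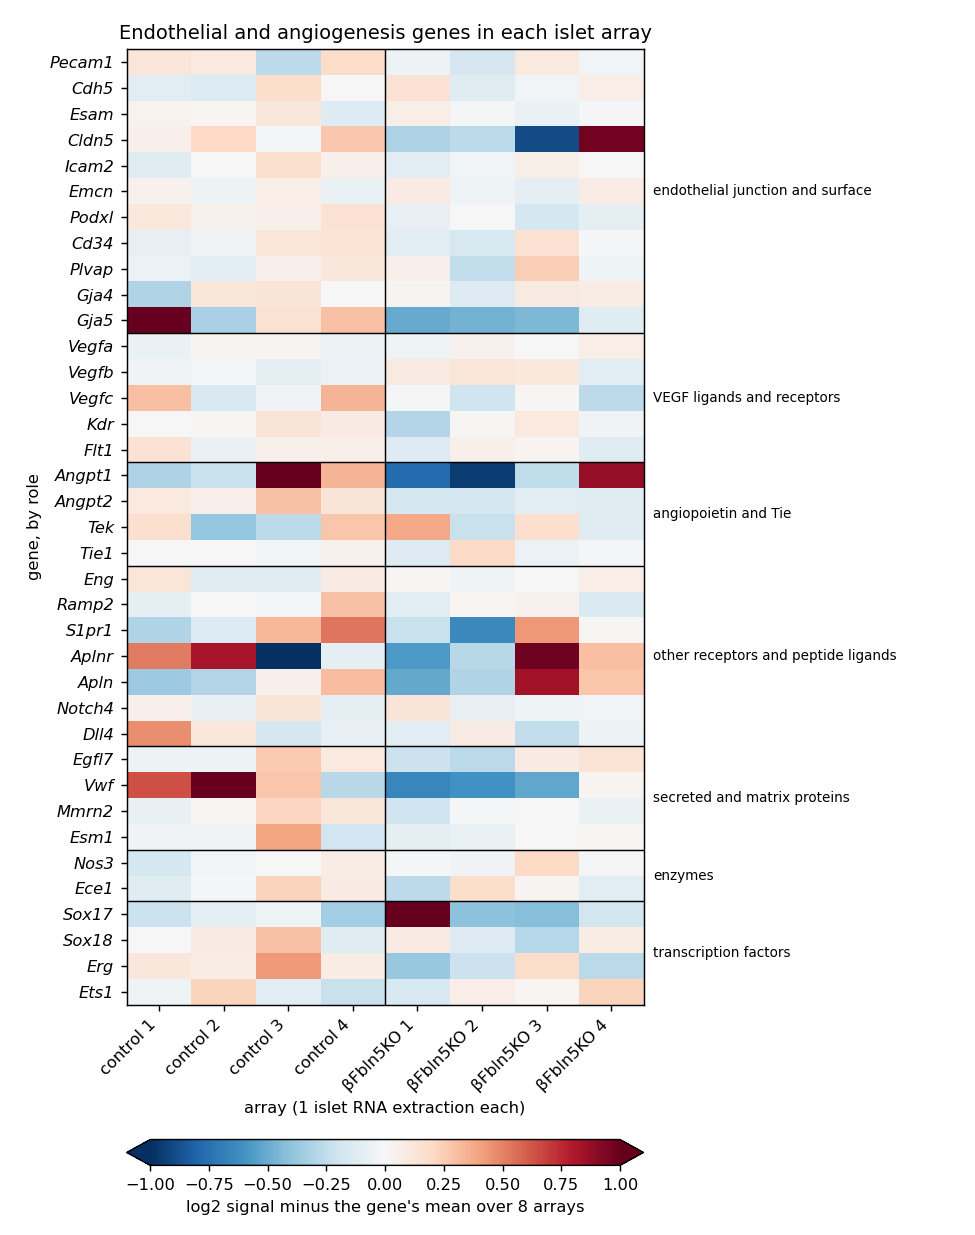
Log2 signal of each of the 37 genes minus its mean over 8 arrays (colour, limited at -1 and 1), with genes in rows by role and arrays in columns, control on the left and βFbln5KO on the right. Angpt2, Gja5 and Mmrn2 are below their mean on all 4 βFbln5KO arrays, most rows are pale, and the deepest colours belong to Gja5, Vwf, Sox17 and partly dim genes such as Cldn5, Angpt1 and Aplnr.

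Across the 32 members measured on every array, the genotypes overlapped. The median deviation from the gene's own mean was -0.03, -0.03, 0.09 and 0.08 on control arrays 1 to 4 and -0.09, -0.07, 0.02 and -0.02 on βFbln5KO arrays 1 to 4. Control array 3 was the highest of the 8 arrays for 12 members, and βFbln5KO array 1 was the lowest for 9. These genes share the arrays and are not replicates of the genotype.

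In all, 111 genes in 8 lists were read, of which 102 were measured on at least 1 array, with 1 lower and 1 higher at an unadjusted p of 0.05, where 3.24% and 1.82% of all measured genes were called, and 0 at an adjusted one. Without βFbln5KO array 4 the counts were 5 lower and 2 higher, beside 3.26% and 3.17% of all measured genes in that setting, and 3 passed the adjusted threshold, beside 1.93%. These 3 were Fbln5, which is itself on the list of vascular inhibitors, Notch1 and Nr2f2. The other genes called there were Lama5, Palmd and Sparc, lower, and Col18a1, higher. Fbln5, Notch1 and Nr2f2 did not pass the unadjusted threshold over all 8 arrays or with any other array left out. The 20 other endothelial genes, such as Robo4 and Cd93, had 0 called, a median of -0.02 and a range of -0.19 to 0.18. The 18 other endothelial transcription factors had 0 called and a median of -0.06. Of the other VEGF and angiopoietin genes, 12 of 14 were measured and 0 called, with a median of -0.04. Of the hypoxia-response genes, which include the regulators of Vegfa transcription, 15 of 16 were measured and 0 called, with a median of 0.00.

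Of the Notch and BMP9 genes, 14 of 15 were measured and 0 passed the test. Jag1, a Notch ligand that opposes Dll4 in sprouting vessels, had groups that did not overlap, at -0.26 (SE 0.12, unadjusted p = 0.0573, limma adjusted p = 0.222). Among the 9 leukocyte adhesion genes, 5 were measured and 0 called, while Icam1, Sele, Selp and Madcam1 were dim on all 8 arrays.

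A vascular inhibitor gave the only higher call of the pathway lists. Col18a1, whose collagen XVIII chain contains endostatin, read -1.53, -1.26, -1.55 and -1.63 in control islets and -1.01, -1.0, 0.54 and -0.47 in βFbln5KO islets. Every βFbln5KO array lay above every control array, most of all βFbln5KO array 3. The difference was 1.01 (SE 0.31, unadjusted p = 0.011, limma adjusted p = 0.0778), and 0.67 without βFbln5KO array 3. Of the 9 inhibitors on the list, 8 were measured. Sparc, a matricellular protein of basement membranes, gave the only lower call. It read 5.47, 5.54, 5.53 and 5.52 in control islets and 5.22, 5.31, 5.44 and 5.27 in βFbln5KO islets, so that the groups did not overlap. The difference was -0.20 (SE 0.06, unadjusted p = 0.0109, limma adjusted p = 0.0776). All 10 basement membrane genes were measured, 8 below 0 and 2 above, with a median of -0.09. Lama5, a laminin chain, differed by -0.20 and Hspg2, or perlecan, by -0.22, and neither passed the test over all arrays. Lama5 passed the unadjusted threshold in 2 of the 8 fits with an array left out and Hspg2 in 1.

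Markers of other islet cells were read on the same arrays. Of the 87 marker genes reported, 81 were measured. At an unadjusted p of 0.05, 1 of these was lower and 0 higher, where 3.24% and 1.82% of all measured genes were called. Groups did not overlap for 3, all lower in βFbln5KO islets, beside 2.21% of all measured genes. Without βFbln5KO array 4, 10 were lower and 0 higher, beside 3.26% and 3.17%. All 12 pericyte and smooth muscle genes were measured and 0 were called, with a median of -0.08. Abcc9, a potassium channel subunit of pericytes, had groups that did not overlap, at -0.35 (SE 0.15, unadjusted p = 0.0519, limma adjusted p = 0.208), and at -0.40 without βFbln5KO array 4 (unadjusted p = 0.0442). The β-cell list had 0 of 9 called and a median of -0.07. Iapp, the amylin gene, had groups that did not overlap, at -0.13 (SE 0.08, limma adjusted p = 0.400). The 5 α-cell genes reported had 0 called and a median of -0.22, with 4 of 5 below 0. Their median deviation ran from 0.09 to 0.14 on control arrays and from -0.37 to 0.22 on βFbln5KO arrays. The macrophage list had 0 of 9 called. In the list of other blood cells, Ptprc, the leukocyte antigen CD45, was lower at -0.29 (SE 0.12, limma adjusted p = 0.185), 1 of the 8 genes measured. Of these 8, 3 were below 0 and 5 above, with a median of 0.07, and Ptprc kept its call in 3 of the 8 fits with an array left out.

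The fibroblast, lymphatic endothelium, δ- and PP-cell, ductal and glia lists had 0 called. Acinar genes, which encode digestive enzymes of the exocrine pancreas, varied widely among arrays of both groups. The 10 acinar genes had 0 called and a median difference of -0.92. Without βFbln5KO array 4, 7 of the 10 were lower at an unadjusted p of 0.05, beside 3.26% of all measured genes. Their median deviation was -0.16, -0.25, 1.27 and 0.99 on control arrays 1 to 4 and -0.18, -1.27, -1.08 and 0.61 on βFbln5KO arrays 1 to 4. The part of acinar, α-cell or leukocyte RNA in the differences of Angpt2, Vwf and Podxl was not tested.

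**Figure D4:**
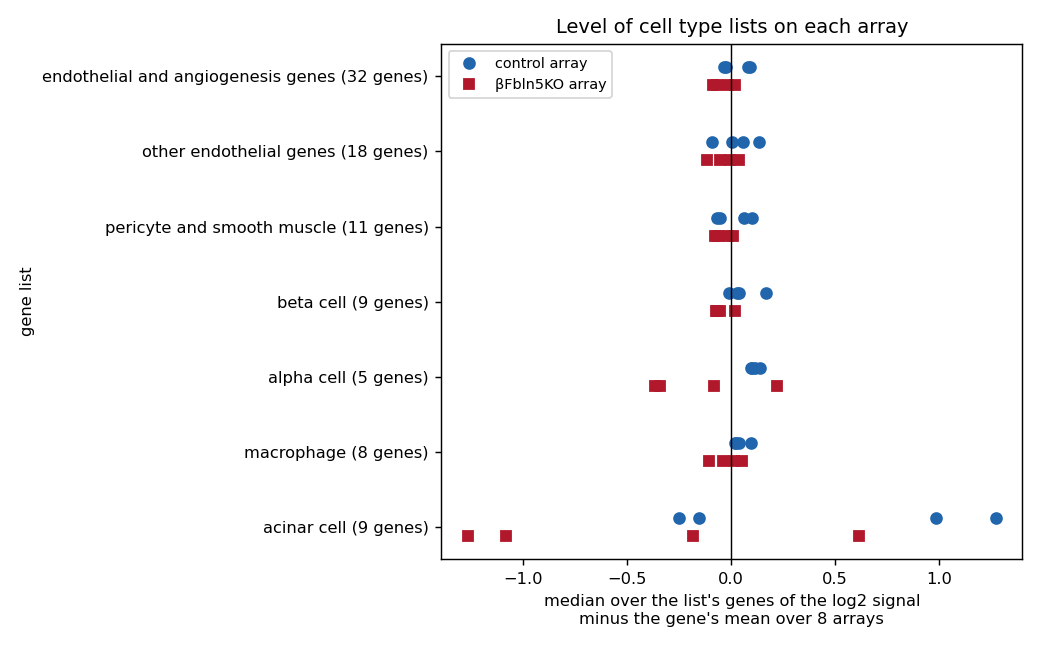
Median over the genes of each list of the log2 signal minus the gene's mean over 8 arrays, for genes measured on all 8 arrays, with circles for control arrays and squares for βFbln5KO arrays. The endothelial, pericyte, β-cell and macrophage lists stay near 0 in both groups, and the acinar list ranges from -1.27 to 1.27.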

How the data were processed

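RNA from 8 islet extractions (4 control, 4 βFbln5KO) was labelled with Cy3 and hybridised to 8 arrays of a SurePrint G3 mouse slide. The authors scanned the slide and obtained background-subtracted, spatially detrended processed signal intensities with Agilent Feature Extraction 11.0.1.1 at default settings. Their normalized signal table, deposited for 35553 probes, equals the processed signal over a single number per array within 0.01%, for 99.8% of values on the array where the fewest matched, and served as an alternative. The design file of the arrays uses the mm9 build.

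Control spots (59305 of 62976 were kept) and 1689 outlier-flagged values (0.356%) were left out, log2 intensities were taken relative to the 75th percentile of each array, and spots of a probe were averaged. Probes were named through RefSeq accessions (32994 of 56605 probes, 58.3%). Of a gene's probes, the brightest over 8 arrays was used (9 members have several probes). All 56605 probes were fitted with limma 3.58.1 (lmFit, eBayes with trend) in R 4.3.3, with Benjamini-Hochberg adjustment. Precision is limited by the array number, and p-values measure only the spread between these extractions. On simulated data for this comparison (55671 probes, 200 of them changed by 2 on the log2 scale), 80.5% were recovered with 9 false calls. The simulated noise was independent and held no shift of dim probes. Its changes exceeded the largest member difference, -0.87 for Vwf, so it gives no recovery share for differences of the members' size.

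Values on every array are given for the VEGF, angiopoietin and Tie genes, Pecam1, Cdh5, Plvap, Emcn, and any member with an unadjusted p under 0.05 or non-overlapping groups. From each other list, at most 4 genes of smallest p are named by rule. Gja5, Sox17, Notch1, Nr2f2, Palmd and the list genes given as examples (Robo4, Cd93 and the dim adhesion genes) were chosen after their values were seen. A marker gene is not reported here. The members and lists were chosen with earlier results of these data known. The 21 alternatives comprised leaving out each array, the replicate number as a block, array weights, the methods' t-test, and other normalization, background, probe and filter choices. Figures were drawn with matplotlib 3.10.9.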

Additional observations from a re-analysis of the deposited data

Results flagged for a closer look

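In 5 of the 74 sets of 4 arrays (37 genes in 2 groups), the array at an end lay further from its nearest neighbour than Dixon's critical value at 95% allows, where chance gives about 3.7. Sox17 read -1.28 on βFbln5KO array 1, against -3.42 to -3.17 on the other βFbln5KO arrays. Gja5 read -3.71 on βFbln5KO array 4, against -4.10 to -4.04 on the others. Vegfb read 1.15 on the same array, against 1.35 to 1.39. Nos3, the endothelial nitric oxide synthase, read 0.83 on βFbln5KO array 3, against 0.60 to 0.62. Erg, an ETS factor of endothelium, read -3.42 on control array 3, against -3.77 to -3.73 on the other control arrays.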

How the results depend on the processing

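Angpt2 and Vwf stayed lower in βFbln5KO islets with an unadjusted p under 0.05 under all 21 alternatives, with log2 differences from -0.31 to -0.23 and from -1.11 to -0.65. Their adjusted p ranged from 0.0127 to 1 and from 0.0409 to 1. Podxl kept its call under 15 of 20. With array weights, 1 member was higher at an unadjusted p of 0.05 (Vegfb) and 2 passed the adjusted threshold (Angpt2 and Vwf). Leaving out each array in turn gave 2 to 5 members lower and 0 to 1 higher, 0 to 2 past the adjusted threshold, and a median from -0.09 to -0.04. The 5 came without control array 2 (Angpt2, Gja5, Podxl, Vegfc and Vwf), and the 2 without βFbln5KO array 4 (Angpt2 and Vegfb). At the unadjusted threshold, 3.24% of measured genes were lower and 1.82% higher over all arrays, and 3.26% and 3.17% without βFbln5KO array 4. Such shares were not read for the other settings, so their member counts cannot be set against one. Over the whole table βFbln5KO array 4 changed the count most, since 11544 of 56605 probes (20.4%) passed the adjusted threshold without it, against 5 to 8 without any other array. Of those 11544 probes, 11206 were higher in βFbln5KO islets. Among the 17075 measured genes, 330 (1.93%) passed the adjusted threshold without βFbln5KO array 4. Fitting without the trend gave 6578 probes (11.6%), of which 6184 were higher, and the methods' t-test 87 (0.154%) after adjustment. The cause of these counts was not tested. Vegfa read -0.20 from its probe of smallest p and -0.03 from the mean of its probes. Whether the array numbers shared by the groups pair the arrays could not be settled. Deviations of same-numbered arrays correlated at -0.22 to 0.30 over 26341 probes, and 4 of 8 arrays correlated best with their own number. With the replicate number as a block, 3 members were lower (Angpt2, Mmrn2 and Vwf), 0 higher and 0 past the adjusted threshold, with a median of -0.07, and Podxl had an unadjusted p of 0.0558. Of 311 values under alternatives for the 15 members given in full, 5 lost and 3 gained an unadjusted p under 0.05, and 21 values that passed no threshold changed sign. Of the other members, Gja5 gained a call under 5 alternatives, Mmrn2 under 2 (the block and without control array 1) and Cldn5 under 1 (without βFbln5KO array 4). With the outer 16 spot rows left out, Podxl, Vegfc and Flt1 had no value, and Angpt1 had no probe well above background on all arrays for the setting by smallest p. With 1 array left out, 15 of the 37 differences changed sign, and none of those 15 had passed a threshold over all arrays. Signal over background limits Cldn5, Angpt1, Aplnr, Dll4 and Erg, which were measured on some arrays only, and Gja5, which was near background on βFbln5KO arrays 1 to 3.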
